A study of Mus musculus with 7 samples.

Results

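The 6 myosin light chain genes Myl1, Myl2, Myl3, Myl4, Mylpf and Myl6b were followed across serial cryosections of the mouse tibialis anterior, the main muscle at the front of the lower leg. They were taken by gene name, and all 6 were among the 53083 genes with the same name and length in the 7 tables. The muscles fell into 3 groups: 3 labelled DMD (the title of the series spells this out as Duchenne muscular dystrophy), 2 labelled Ctr and 2 labelled WT. Column names carry mdx for DMD, hDMD for Ctr and pax7 for WT, words the labels do not explain; mdx is also the name of a mouse strain with a mutated dystrophin gene. Reads of the DMD and Ctr muscles were counted against an annotation with added human DMD sequence, and those of the WT muscles against one with added EGFP sequence. No age, sex, treatment or other allele of any group is given in the sources used here. Whether each muscle came from its own animal is not stated, and the p-values below therefore reflect only how these 7 samples vary, which may be technical.

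Each myosin motor of a muscle fibre is a pair of heavy chains, and the neck of each heavy chain carries an essential and a regulatory light chain. Fibres match light chains to their type: Myl1 (essential) and Mylpf (regulatory) serve fast fibres, Myl3 (essential) and Myl2 (regulatory) serve slow fibres and the heart ventricle, Myl4 is the essential chain of embryonic muscle and the heart atrium, and Myl6b is an essential chain of slow fibres and non-muscle cells. The tibialis anterior of the mouse is mostly fast.

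Total counts per muscle ran between 11316565 and 41699100, and 422 of 525 sections were used (192 of 233 in DMD, 116 of 146 in Ctr, 114 of 146 in WT). Mitochondrial genes held between 25.7% and 45.9% of the counts of a muscle. The skeletal muscle markers Acta1, Ckm, Ttn, Neb and Mb summed to 23439 to 34952 CPM (counts scaled to the library total) in DMD muscles, 36730 to 47596 CPM in Ctr muscles and 35976 to 37298 CPM in WT muscles. CPM of whole muscles and of blocks of sections are scaled by TMM throughout, a correction for differences in RNA composition. Dmd, the dystrophin gene, was detected in every muscle, at 9.25, 14.8 and 9.85 CPM in DMD, 9.56 and 15.9 CPM in Ctr, and 16.3 and 13.2 CPM in WT.

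The promoters of Myl3 and Myl4 are shown because these were the 2 light chains whose level passed the test between DMD and the other groups. The sequences are from RefSeq (GRCm38.p6), from 250 bases before to 50 after the annotated start, on the plus strand. The Myl3 window, chr9:110763428-110763727, lies inside the span that the deposited tables give the gene, and the Myl4 window, chr11:104550413-104550712, ends 50 bases into the gene.
Myl3: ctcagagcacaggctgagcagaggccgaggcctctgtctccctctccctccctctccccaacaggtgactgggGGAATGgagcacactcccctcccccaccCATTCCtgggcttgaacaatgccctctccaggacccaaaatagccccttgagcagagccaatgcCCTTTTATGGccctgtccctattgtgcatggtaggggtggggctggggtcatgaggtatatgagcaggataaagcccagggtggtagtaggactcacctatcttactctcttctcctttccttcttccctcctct
Myl4: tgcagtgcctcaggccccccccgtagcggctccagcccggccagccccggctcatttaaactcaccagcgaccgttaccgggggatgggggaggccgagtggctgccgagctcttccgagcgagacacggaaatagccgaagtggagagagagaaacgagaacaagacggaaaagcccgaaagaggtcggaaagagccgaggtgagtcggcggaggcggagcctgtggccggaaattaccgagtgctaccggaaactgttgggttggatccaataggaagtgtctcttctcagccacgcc
Capitals mark matches to 2 muscle promoter motifs, the CArG box and the M-CAT motif (CATTCC), and would mark TATAAA, searched on both strands. The Myl3 window held 1 CArG box at position -85, a motif found in 1.64% of 32544 RefSeq promoter windows of this length. It also held M-CAT matches at positions -177 and -149, against a share of 14.6% of windows with at least 1. An E-box (CANNTG, not in capitals) lay at -189 in the Myl3 window, and 72.3% of windows had one. No match overlapped another. The Myl4 window held none of the 4 motifs (TATAAA was in 13.6% of windows), and its GC content was 61.7%, against 57.3% for Myl3. Letters in a window do not show that a factor binds there.

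The fast chains were by far the most abundant, and neither passed the test between DMD and Ctr or WT. Myl1 (GRCm38 chr1:66924295-66945404, minus strand) had 11109.9, 16778 and 13231 CPM in DMD muscles, against 10709.7 and 13788 CPM in Ctr muscles and 15161 and 23872 CPM in WT muscles. Mylpf (chr7:127208890-127214298, plus strand) had 4593, 5478 and 5816 CPM in DMD muscles, against 3280 and 3733 CPM in Ctr muscles and 6044 and 6213 CPM in WT muscles. The DMD and Ctr muscles overlapped for Myl1. For Mylpf every DMD muscle lay above both Ctr muscles and below both WT muscles, with a log2 fold change of 0.59 ± 0.24 (SE) over Ctr (adjusted p = 0.119, edgeR quasi-likelihood test with Benjamini-Hochberg adjustment, used for every adjusted p here). With library totals as the only scaling, which moved the median gene by 0.31, Mylpf passed (log2 0.89, adjusted p = 0.0297). Myl1 gave 0.16 ± 0.30 over Ctr (adjusted p = 0.756) and -0.51 ± 0.30 over WT (adjusted p = 0.266).

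Myl3, the slow essential chain (chr9:110741861-110769798, plus strand), was lower in DMD and had the smallest spread relative to its mean of the 6 genes there. It had 8.87, 8.35 and 7.94 CPM in DMD muscles, against 41.0 and 49.04 CPM in Ctr muscles and 156 and 176 CPM in WT muscles. No group overlapped another, and the order DMD, Ctr, WT held for every muscle. Between 824 and 5049 counts stood behind each group. By p, Myl3 ranked 3 of 13746 genes in DMD against Ctr, with a log2 fold change of -2.42. It ranked 1 in DMD against WT, where its fold change was 19.8 (log2 -4.30 ± 0.20, adjusted p = 1.69e-05). WT muscles were counted with another annotation, and any effect of that, or of a batch, cannot be told apart from the group. In DMD against Ctr, 2 of the 6 light chains passed the test, Myl3 lower and Myl4 higher, beside 12.7% of all genes. Both also passed in DMD against WT, beside 15.2% of all genes. They were also the 2 light chains whose 3 DMD muscles lay all above or all below the 4 other muscles, as in 26.7% of all genes. A level in a whole-section extract cannot tell fewer cells of a type from less RNA per cell.

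Myl4, the embryonic and atrial essential chain (chr11:104550663-104595753, plus strand), rose in DMD muscles, and they differed widely among themselves. It had 18.9, 58.9 and 15.0 CPM in DMD muscles, against 1.67 and 3.58 CPM in Ctr muscles and 3.34 and 3.28 CPM in WT muscles. Every DMD muscle lay above every other muscle, with DMD replicate 2 highest. The log2 fold change was 3.58 ± 0.64 over Ctr (adjusted p = 0.0134) and 3.21 ± 0.62 over WT (adjusted p = 0.0145). Without Ctr replicate 1 the call against Ctr was lost (adjusted p = 0.142, log2 3.09), and without WT replicate 1 or 2 the call against WT was lost (adjusted p = 0.127 and 0.145); with 1 muscle left in a group, its spread is assumed to be that of the other groups. The other 4 heart markers listed (Nppa, Tnni3, Myl7 and Myh6) summed to 0.267 to 0.412 CPM in DMD muscles, 0.308 to 0.341 CPM in Ctr muscles and 0.431 to 0.491 CPM in WT muscles, and Myl7, the atrial regulatory chain, had 0 counts in all 7.

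Myl2, the slow regulatory chain and usual partner of Myl3 (chr5:122100951-122113472, plus strand), was low and uneven. It had 1.25, 1.54 and 4.53 CPM in DMD muscles, against 1.79 and 23.8 CPM in Ctr muscles and 5.82 and 15.8 CPM in WT muscles. Unlike Myl3, its DMD and Ctr muscles overlapped. Its log2 value of -2.39 ± 0.87 in DMD against Ctr did not pass (adjusted p = 0.0963), without Ctr replicate 2 it turned to 0.42, and it passed without DMD replicate 3 (-3.20, adjusted p = 0.0281) and with no filter on low counts (-2.33, adjusted p = 1.3e-14). All 3 DMD muscles lay below both WT muscles, and the log2 value of -2.15 ± 0.87 against WT did not pass (adjusted p = 0.119) but did in 6 of 15 alternatives. These included the fit to the 2 groups only (adjusted p = 0.0393), no filter (adjusted p = 7.52e-12) and leaving out DMD replicate 3, Ctr replicate 1 or Ctr replicate 2 (adjusted p = 0.0368, 0.0398 and 0.0403). Myh7, the slow heavy chain, was also highest in Ctr replicate 2 (1.45 CPM, only 17 counts) and WT replicate 2 (0.901 CPM, only 11 counts), against at most 0.305 CPM (7 counts) elsewhere. Myl6b (chr10:128494157-128498685, minus strand) had 6.35, 11.6 and 4.53 CPM in DMD muscles, against 3.89 and 4.68 CPM in Ctr muscles and 5.71 and 5.65 CPM in WT muscles, and did not pass in either comparison (log2 0.79 ± 0.37 over Ctr, adjusted p = 0.176), though over Ctr it did without DMD replicate 3 (1.04, adjusted p = 0.0309) and with no filter (0.83, adjusted p = 0.0469).

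**Figure D1:**
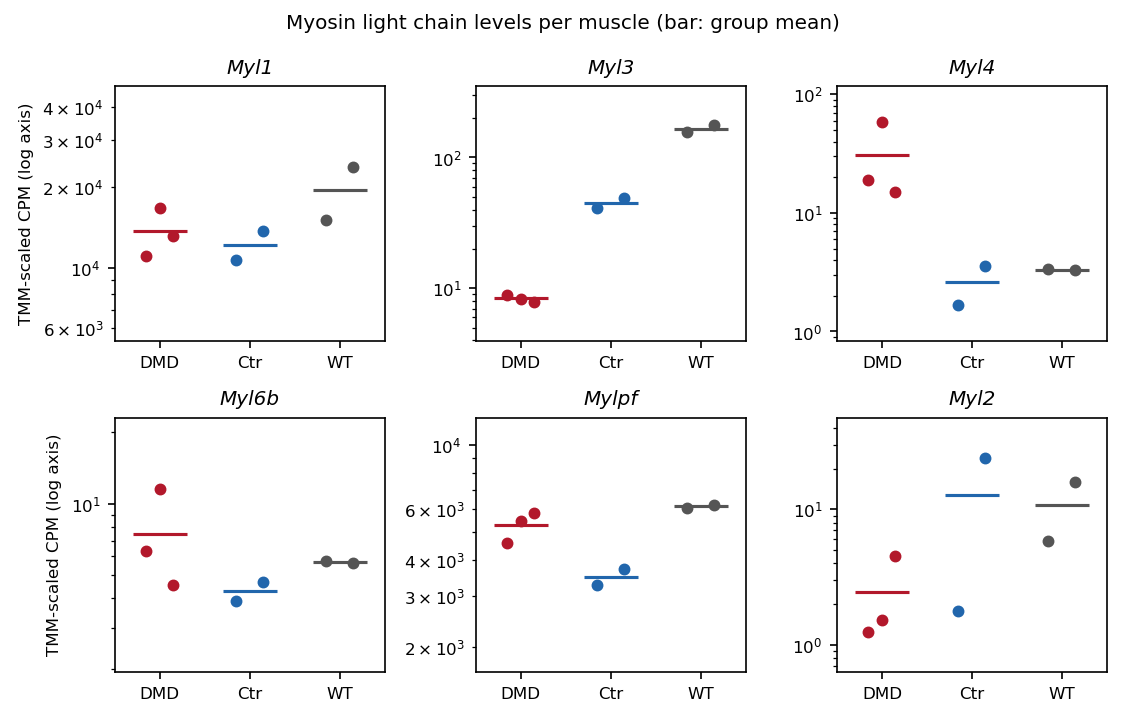
TMM-scaled CPM on log axes for each light chain, with 1 point per muscle and a bar at the mean of the DMD, Ctr and WT groups. Myl3 falls into 3 separate levels, at 7.94 to 8.87 CPM in DMD, 41.0 to 49.04 CPM in Ctr and 156 to 176 CPM in WT, and the DMD muscles stand above the others for Myl4.

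**Figure D2:**
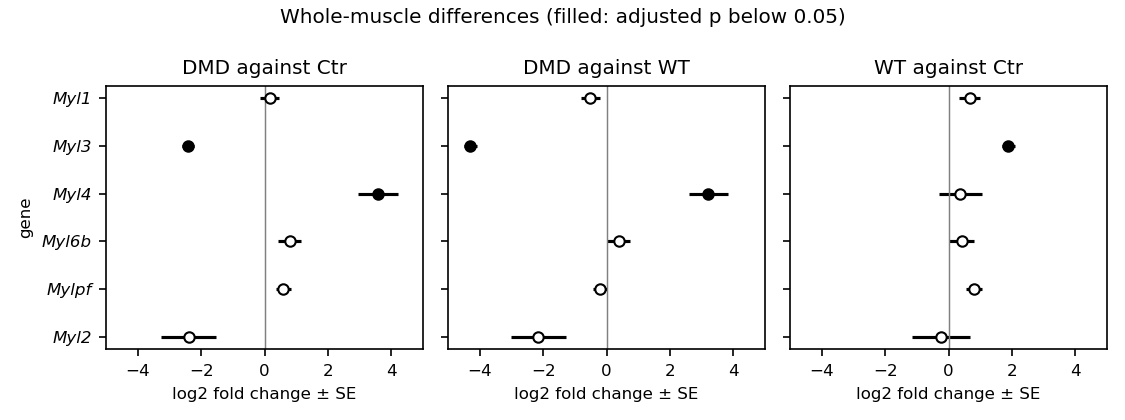
Log2 fold changes with standard errors for the 6 light chains in the 3 whole-muscle comparisons, filled where the adjusted p was below 0.05. Myl3 and Myl4 are filled in both DMD comparisons, at -2.42 and 3.58 against Ctr, and only Myl3 is filled in WT against Ctr, at 1.88.

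WT and Ctr muscles differed in Myl3 as well. Its level was 3.69-fold higher in WT than in Ctr (log2 1.88 ± 0.21, adjusted p = 0.0115), 1 of only 50 genes called among 13746 (0.364%). The other 5 light chains did not pass, Mylpf coming closest at 0.81 ± 0.26 (adjusted p = 0.155). The Myl3 call was lost without Ctr replicate 1, WT replicate 1 or WT replicate 2 (adjusted p = 0.169, 0.109 and 0.227). WT tables were counted with another annotation, and any effect of that, or of a batch, cannot be told apart from the group.

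Per kilobase of exon, the balance of the minor chains was not the same in the 3 groups. Myl1 came first and Mylpf second in all 7 muscles. In DMD muscles the other chains averaged 6.67 ± 5.24 CPM per kilobase for Myl4, 4.10 ± 0.229 for Myl3, 4.05 ± 1.98 for Myl6b and 1.25 ± 0.932 for Myl2 (SD, n = 3). On this scale, which depends on exon length, Myl4, Myl3 and Myl6b did not differ beyond their spread. In CPM not divided by length, Myl4 led in each DMD muscle. It had 18.9, 58.9 and 15.0 CPM, against 8.87, 8.35 and 7.94 CPM for Myl3 and 6.35, 11.6 and 4.53 CPM for Myl6b. In Ctr muscles Myl3 led them at 22.02 ± 2.79 CPM per kilobase, ahead of Myl2 at 6.57 ± 8.00, Myl6b at 2.32 ± 0.305 and Myl4 at 0.565 ± 0.291 (SD, n = 2). In WT muscles the same order held, with Myl3 at 81.2 ± 6.72, Myl2 at 5.54 ± 3.62, Myl6b at 3.08 ± 0.0218 and Myl4 at 0.713 ± 0.00956 CPM per kilobase (SD, n = 2). Myl2 and Myl6b overlapped in both of those groups.

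The ratio of the slow to the fast essential chain gives the same genes without the scaling between muscles. Myl3 counts were 0.0798, 0.0498 and 0.0600% of Myl1 counts in DMD muscles, against 0.382 and 0.356% in Ctr muscles and 1.03 and 0.736% in WT muscles. All 3 DMD muscles lay below all 4 others, a log2 difference of -3.19 (two-sided exact permutation p = 0.0571, the smallest that 3 against 4 muscles allow). Among the regulatory chains, Myl2 was 0.0273, 0.0281 and 0.0780% of Mylpf in DMD muscles, against 0.0545 and 0.639% in Ctr muscles and 0.0962 and 0.254% in WT muscles, and DMD replicate 3 overlapped with Ctr replicate 1 (log2 difference -2.12, two-sided exact permutation p = 0.114).

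Among the sarcomeric heavy chains, which carry these light chains, 2 of 8 tested genes passed in DMD against Ctr, 1 in each direction, beside 12.7% of all genes. Myh2, the heavy chain of fast oxidative 2A fibres, fell to 79.7, 53.9 and 53.5 CPM in DMD muscles, against 127 and 175 CPM in Ctr muscles and 201 and 227 CPM in WT muscles (log2 -1.27 ± 0.24 against Ctr, adjusted p = 0.0159). Myh3, the embryonic heavy chain, averaged 12.4 ± 7.84 CPM in DMD muscles (SD, n = 3) and 0.642 ± 0.297 CPM in Ctr muscles (SD, n = 2), a log2 fold change of 4.29 ± 0.63 (adjusted p = 0.00734). Myh2 moved in the direction of Myl3 and Myh3 in that of Myl4. Myh4 and Myh1, the 2B and 2X chains, gave -0.44 ± 0.26 and -0.39 ± 0.31 and did not pass (adjusted p = 0.282 and 0.42). The median over the 8 heavy chains was -0.61, beside 0.02 over all genes tested.

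The other myosin light chains tested (Myl6, Myl9, Myl10, Myl12a and Myl12b) did not pass in DMD against Ctr. Nor did the kinases and phosphatase subunits that add phosphate to light chains or remove it. By edgeR's quasi-likelihood test 0 of 5 and 0 of 6 tested were called, beside 12.7% of all genes. At an unadjusted p below 0.05 there were 1 and 2, and DESeq2 called 0 and 1. Myl12a, a non-muscle regulatory chain and the most abundant of these light chains, averaged 128 ± 9.40 CPM in DMD muscles (SD, n = 3), against 89.0 ± 3.27 CPM in Ctr muscles and 204 ± 46.9 CPM in WT muscles (SD, n = 2 each). Mylk4, a light chain kinase family member, averaged 107 ± 36.3 CPM in DMD muscles (SD, n = 3) and 107 ± 56.4 CPM in Ctr muscles (SD, n = 2). Against WT, Myl9 and Mylk, both typical of smooth muscle, were lower in DMD (log2 -0.85 ± 0.25, adjusted p = 0.0461, and -0.94 ± 0.20, adjusted p = 0.0186).

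Fibre and cell type markers that moved with these differences were as follows. In the slow fibre list 2 of 8 genes passed in DMD against Ctr, beside 12.7% of all genes (4 at an unadjusted p below 0.05, 4 called by DESeq2). The median log2 of the list was 0.66 against Ctr, beside 0.02 over all genes, and 0.83 against WT, beside 0.07. The 2 that passed against Ctr went in opposite directions: the slow calcium pump Atp2a2 was higher (log2 1.08 ± 0.28, adjusted p = 0.038) and Myoz2, which binds calcineurin at the Z-disc, was lower (-1.07 ± 0.27, adjusted p = 0.0332). The fast fibre list had 0 of 9 called in that edgeR test (2 at an unadjusted p below 0.05, 1 called by DESeq2), with Atp2a1, the fast calcium pump, at 37886 ± 12900 CPM in DMD muscles (SD, n = 3) and 60787 ± 3673 CPM in Ctr muscles (SD, n = 2). Of the regenerating fibre list, 7 of 9 were called higher in DMD against Ctr, beside 7.17% of all genes. The median log2 of this list was 3.28, beside 0.02 over all genes. Its summed level was 345 to 1004 CPM in DMD muscles, 160 to 178 CPM in Ctr muscles and 102.1 to 172 CPM in WT muscles. Chrng, the fetal acetylcholine receptor subunit, averaged 3.42 ± 1.88 CPM in DMD muscles (SD, n = 3) and had 0 counts in both Ctr muscles, and the fusion gene Mymk averaged 15.4 ± 9.24 CPM in DMD muscles (SD, n = 3), against 0.170 ± 0.241 CPM in Ctr muscles (SD, n = 2). Mymx, its partner, averaged 0.649 ± 0.299 CPM in DMD muscles (SD, n = 3) and also had 0 counts in Ctr.

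In DMD against Ctr, all 6 macrophage markers were higher (Ctss, Cd68 and Lyz2 leading by fold), beside 7.17% of all genes called higher and 5.49% called lower. Their summed levels were 127 to 595 CPM in DMD muscles, 28.6 to 54.6 CPM in Ctr muscles and 47.4 to 57.7 CPM in WT muscles. In the same comparison smooth muscle markers had 2 of 4 lower (Tagln and Myh11) and erythroid markers 2 of 5 lower (Hba-a1 and Alas2). Against WT these counts were 1 of 4 and 0 of 5, beside 6.92% of all genes called lower. Ctr replicate 2 had the highest erythroid sum at 21506 CPM. Of the skeletal muscle markers, 1 of 5 was lower: Mb, the oxygen carrier myoglobin, at 497, 794 and 623 CPM in DMD muscles, against 1851 and 1503 CPM in Ctr muscles and 2779 and 2990 CPM in WT muscles (log2 -1.39 ± 0.25 against Ctr, adjusted p = 0.0136). The part of these markers in the light chain differences was not tested.

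Several of these calls depended on single muscles or on the processing. Without Ctr replicate 1, 56 genes were called in DMD against Ctr in place of 1740. The calls of Myl4, Myh2, Myh3, Mb, Atp2a2, Myoz2, Tagln, Myh11, Chrng, Mymk, Mymx, Ctss, Cd68 and Lyz2 were then lost (adjusted p between 0.0773 and 0.283). Myl3 was still called there, and its adjusted p was at most 0.00775 over 16 alternatives. Without Ctr replicate 2, the calls of Myh2, Myoz2, Atp2a2, Myh11, Mymx, Cd68, Alas2 and Hba-a1 were lost (adjusted p between 0.0518 and 0.263). Leaving out DMD replicate 1 or a WT muscle ended the calls of Atp2a2, Myoz2, Myh11, Alas2 and Hba-a1 (adjusted p between 0.058 and 0.103), as did DMD replicate 2 for these apart from Myoz2 (adjusted p between 0.0782 and 0.0864). Mymx was also lost without WT replicate 1 (adjusted p = 0.0506). Library totals as the only scaling ended the calls of Myh2, Myoz2 and Myh11 (adjusted p = 0.0722, 0.162 and 0.173). Thinned sections ended those of Atp2a2, Myoz2, Myh11 and Alas2 (adjusted p between 0.0501 and 0.104), and the fit to the 2 groups only ended these and Hba-a1 (adjusted p between 0.0604 and 0.0691). With WT and Ctr joined, Alas2 and Hba-a1 were lost (adjusted p = 0.0748 and 0.0666).

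Along the muscle, Myl3 was the only light chain called between the middle and the ends over all groups. The column names number the sections, and the kept sections of each muscle were divided in that order into 3 blocks of equal size, first, middle and last. Which end of the muscle came first is not stated. Myl3 was 1.42-fold higher in the middle block than at the ends (log2 0.50 ± 0.07, adjusted p = 0.000105), ranking 6 of 12085 genes tested and being 1 of only 21 called (0.174%). Its middle block exceeded the mean of the end blocks in 7 of 7 muscles, a property of 1.28% of genes, and exceeded both ends in 5 of 7. The other 5 light chains did not pass, with Myl4 at -0.46 ± 0.17 (adjusted p = 0.819), though Myl4 did with outer and middle 20% bins (-1.08, adjusted p = 0.0474).

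In DMD muscles Myl3 had 10.8, 9.74 and 9.79 CPM in the middle block, against 11.2, 10.1 and 8.58 CPM in the first block and 5.08, 5.11 and 4.88 CPM in the last block. In Ctr muscles it had 55.7 and 60.2 CPM in the middle, against 37.4 and 43.5 CPM in the first block and 27.7 and 42.7 CPM in the last. In WT muscles it had 176 and 201 CPM in the middle, against 146 and 145 CPM in the first block and 134 and 168 CPM in the last. The 2 muscles whose middle did not exceed both ends were DMD replicates 1 and 2, where the first block was slightly higher. The middle-against-ends effect of DMD differed from the mean of WT and Ctr by 0.04 ± 0.14 on the log2 scale (adjusted p = 1), and 2 genes were called for such a difference (0.0165%).

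**Figure D3:**
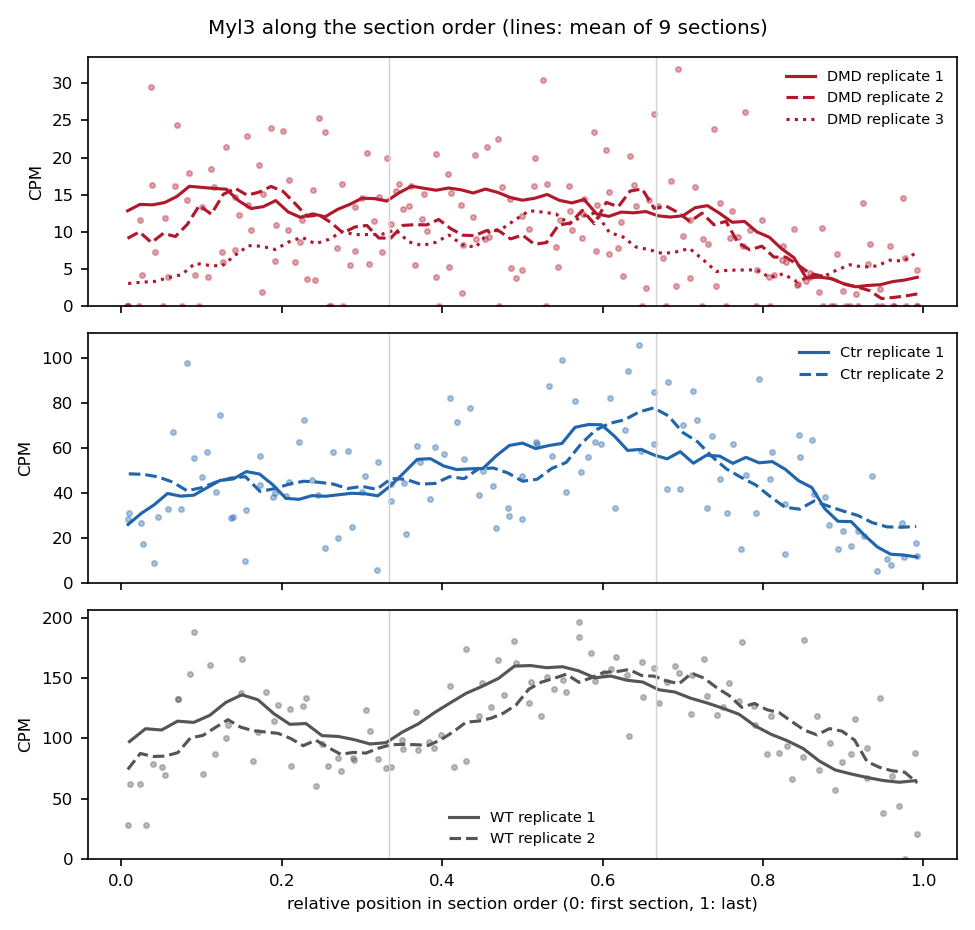
Myl3 CPM (not TMM-scaled) in single sections against relative position in section order, by group, with lines for the running mean of 9 sections in each muscle and grey lines at the borders of the blocks. The running means of the WT muscles and Ctr replicate 1 peak in the middle block and that of Ctr replicate 2 at its border with the last block; those of the WT and Ctr muscles and of DMD replicates 1 and 2 drop within the last block. The vertical scales differ between groups.

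The first and last blocks also differed. Myl3 was higher in the first block over all groups (log2 0.40 ± 0.08, adjusted p = 0.00538, beside 3.11% of genes called), in 6 of 7 muscles, WT replicate 2 being the exception. The call was lost without Ctr replicate 1 or WT replicate 1 (adjusted p = 0.13 and 0.101) and with library totals as the only scaling (adjusted p = 0.091). In the DMD muscles alone, Myl3 was 2.03-fold higher in the first block (log2 1.02 ± 0.16, adjusted p = 0.00153) and Myl2 3.82-fold higher (1.94 ± 0.42, adjusted p = 0.0268), beside 1.4% of genes called. Myl2 had 1.95, 1.53 and 6.68 CPM in the first block of the DMD muscles, against 0.391, 1.28 and 1.30 CPM in the last block. Over all blocks it had only 73, 23 and 104 counts in these muscles. DMD replicate 2 showed the smallest step. The difference of this effect between DMD and the mean of WT and Ctr was 2.39 ± 0.49 for Myl2 and 0.93 ± 0.19 for Myl3 (adjusted p = 0.0282 each, beside 0.182% of genes), a comparison added after the data were seen, and leaving out 1 muscle ended both calls in several cases. The Myl2 call was lost without DMD replicate 1 or 3, Ctr replicate 2 or WT replicate 2 (adjusted p = 0.1, 0.19, 0.637 and 0.144). The Myl3 step of each DMD muscle was above that of each Ctr and WT muscle; in 8.03% of genes the DMD muscles were all above or all below the others in this way. The Myl3 call was lost without DMD replicate 1, Ctr replicate 1 or 2, or WT replicate 1 or 2 (adjusted p between 0.0526 and 0.508). Myl6b was lower in the first block in 7 of 7 muscles, a property of 1.84% of genes, at -0.33 ± 0.16 (adjusted p = 0.36).

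Several heavy chains and kinases were also unequal between the ends. Myh2 (log2 0.77 ± 0.11, adjusted p = 4.22e-05) and Myh1 (0.41 ± 0.09, adjusted p = 0.00762) were higher in the first block, and Myh4 (-0.34 ± 0.07, adjusted p = 0.0102), Mylk2 (-0.36 ± 0.07, adjusted p = 0.00245) and Mylk4 (-0.41 ± 0.07, adjusted p = 0.000432) were lower. Erythroid (5 of 5 tested) and smooth muscle markers (3 of 3 tested) were also higher in the first block, and their part in the light chain values was not tested.

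**Figure D4:**
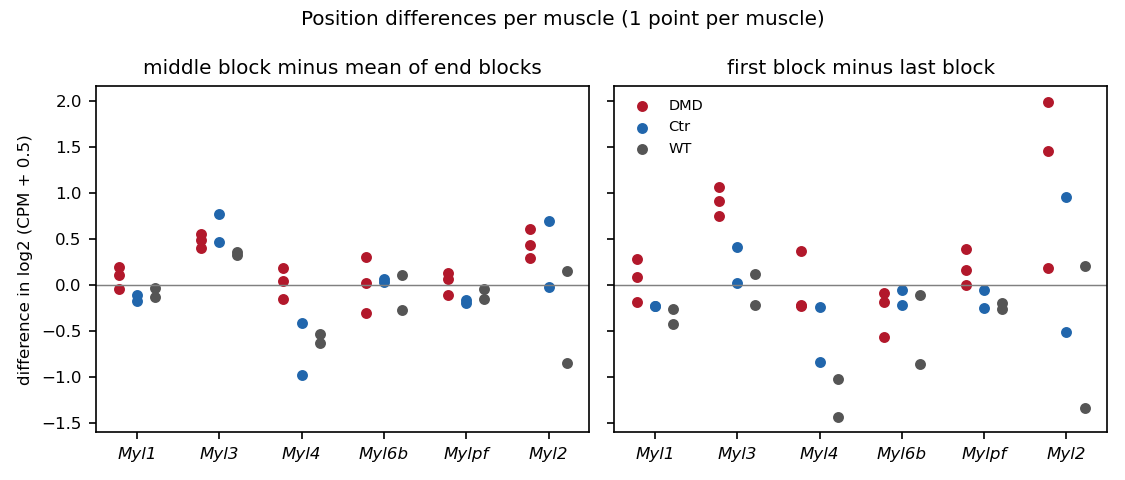
Differences in log2 (CPM + 0.5) between the middle block and the mean of the end blocks (left) and between the first and last blocks (right), with 1 point per muscle for each light chain. All 7 points of Myl3 lie above 0 on the left, and all 7 points of Myl6b lie below 0 on the right.

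In single sections Myl1 and Mylpf went together in Ctr and WT muscles but hardly in DMD muscles, and the genes most like Myl3 were not those most like the fast chains. These are descriptions across the sections of a muscle, which share a library and differ in depth, and are given as means or medians over the 7 muscles. Across sections, the genes most like Myl3, by the Pearson correlation of log2 (CPM + 10) averaged over 7 muscles among 2725 genes of at least 20 CPM, were Myh2 (0.53, range 0.26 to 0.73), Ankrd2 (0.45), Csrp3 (0.44) and Got1 (0.40). Ankrd2 and Csrp3 encode sarcomere-associated proteins that respond to stretch, and Got1 is the cytosolic aspartate aminotransferase. For Myl1 they were Tpm1 (0.61), Aldoa (0.60), Ldha (0.57) and Pvalb (0.52), a tropomyosin, 2 glycolytic enzymes and a calcium buffer of fast fibres. For Mylpf they were the fast troponins Tnni2 (0.50) and Tnnc2 (0.49), Gpx4 (0.41) and Myl1 (0.41). Myl3 itself had a mean correlation of -0.04 with Myh4.

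Between members, the Spearman correlation of Myl1 with Mylpf was -0.02, 0.17 and 0.09 in DMD muscles, against 0.54 and 0.45 in Ctr muscles and 0.68 and 0.67 in WT muscles. The median over 7 muscles was -0.24 for Myl1 with Myl3 and 0.11 for Myl2 with Myl3. Section CPM were not TMM-scaled and their totals include mitochondrial counts. With the mitochondrial share of a section, Myl1 correlated at -0.05, -0.30 and -0.28 in DMD, -0.39 and -0.19 in Ctr, and -0.83 and -0.87 in WT muscles. For Mylpf these values were 0.52, -0.06 and 0.26 in DMD, -0.42 and -0.13 in Ctr, and -0.57 and -0.73 in WT muscles. The part of this share in the correlation of Myl1 with Mylpf was not tested. The Spearman correlation of a section with the next for Myl1 was 0.617, 0.556 and 0.0538 in DMD muscles and between 0.642 and 0.732 in the Ctr and WT muscles. For Myl3 it was 0.383, -0.0618 and 0.0733 in DMD muscles and between 0.482 and 0.71 in the Ctr and WT muscles. It was near 0 for both genes in DMD replicate 3 and for Myl3 in DMD replicate 2. Over all kept sections Myl3 had only 125 counts in DMD replicate 2 and 182 in DMD replicate 3. The part of such low counts in these correlations was not tested. Myl3 had at least 1 count in 62 of 65, 47 of 67 and 51 of 60 sections of the DMD muscles. The Ctr muscles had 61 of 61 and 55 of 55 such sections, and the WT muscles 50 of 50 and 63 of 64. Depth differed, with a median section total of 162467 in DMD replicate 2, the lowest of the 7 muscles, and 241221 in Ctr replicate 1. The section median of Myl3 was 12.2, 8.26 and 7.17 CPM in DMD muscles, against 45.6 and 43.3 CPM in Ctr muscles and 119 and 118 CPM in WT muscles (not TMM-scaled).

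**Figure D5:**
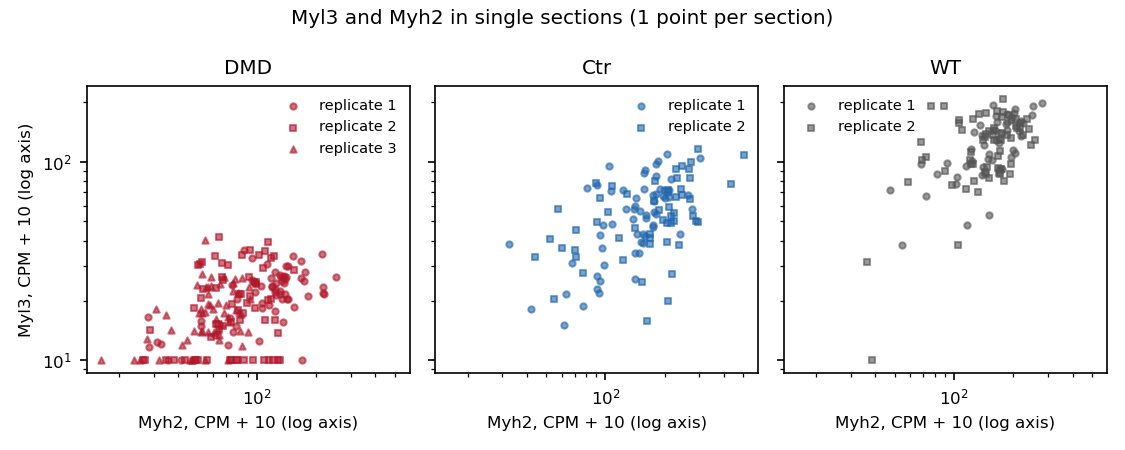
Myl3 against Myh2 in single sections, both as CPM + 10 on log axes and not TMM-scaled, with 1 point per section and a symbol per replicate, in DMD, Ctr and WT muscles. Within each group Myl3 is higher in sections with more Myh2, and the points at the lower edge in DMD are sections with no Myl3 count.

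Myl4 showed no section pattern of that kind. In the 20% of sections with the highest regenerating fibre score, Myl4 averaged 26.7, 91.3 and 17.95 CPM in the DMD muscles, against 26.6, 73.7 and 15.3 CPM in their other sections, higher in 3 of 3 muscles but by little in replicate 1. Its Spearman correlation with that score ranged between -0.20 and 0.28 over the 7 muscles. Myl4 was present in 65 of 65, 66 of 67 and 59 of 60 sections of the DMD muscles, against 20 of 61 and 28 of 55 in Ctr muscles and 33 of 50 and 27 of 64 in WT muscles.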

How the data were processed

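RNA was sequenced from single cryosections of 7 tibialis anterior muscles, 1 table per muscle and 1 column per section. The deposited values are expected counts: per the file headers, the authors counted exon reads by gene name with featureCounts 2.0.1, splitting reads that map to several places or genes into fractions (--fraction) and using strand (-s 1). STAR 2.7.7a and GRCm38 are named in the submitters' processing notes. Per the labels, read 2 held an 8-base molecular identifier and an 8-base section barcode; the column names carry dedup2, which no source explains. Counting was stranded, and no member shares exons with another gene on its strand.

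Sections with a total of at least 1000 and at least 20% of their muscle's median were added up per muscle, or per block (first, middle, last) of the section order, and rounded. Whole muscles (depth above) were compared with edgeR 4.0.16 in R 4.3.3: filterByExpr, TMM (factors 0.669 to 1.41), quasi-likelihood F tests over all 3 groups, and Benjamini-Hochberg adjustment over all genes tested (13746, or 12085 for position). Position fits had a term per muscle and averaged the groups equally. Genes with an adjusted p below 0.05 are called. An approximate SE was taken as the size of the log2 fold over the root of the F value. Fits were tried on simulated counts drawn independently with the same spread for every gene. That does not show how they behave where calls depend on single muscles. Permutation tests used scipy 1.17.1. DESeq2 1.42.0 and other settings were alternatives. Log2 ratios had a pseudocount of 0.5 counts, and block differences per muscle 0.5 CPM. Intervals of low counts are not given. Low counts limit Myl2, Myl4 and Myl6b, and also Myl3 in single sections of DMD muscles.

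The members and 11 other lists were chosen with earlier results of these data known. Named genes are all members, up to 3 called genes of each list by fold in DMD against Ctr (or the most expressed), any listed light chain, heavy chain or kinase, and the 4 genes most like each member. The first-against-last difference between DMD and the other groups was added after seeing the data. Protein sequences were not used here.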

Additional observations from a re-analysis of the deposited data

Results flagged for a closer look

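The step between the first and last blocks of sections was not the same in DMD as in the other groups for 2 light chains, a comparison added after the data were seen. For Myl2 the first-against-last effect of DMD exceeded the mean of WT and Ctr by 2.39 ± 0.49 on the log2 scale (adjusted p = 0.0282, edgeR quasi-likelihood test), and for Myl3 by 0.93 ± 0.19 (adjusted p = 0.0282), beside 0.182% of genes called. Taken singly, the log2 step of Myl3 was 1.07, 0.92 and 0.76 in DMD muscles, against 0.42 and 0.03 in Ctr muscles and 0.12 and -0.22 in WT muscles, so every DMD muscle lay above the Ctr and WT muscles (8.03% of genes had all DMD muscles above or below the others), while Ctr and WT overlapped. For Myl2 it was 1.46, 0.19 and 2.00 in DMD muscles, against 0.96 and -0.51 in Ctr muscles and 0.21 and -1.33 in WT muscles, and the groups overlapped. The Myl2 call was lost in 6 of 12 alternatives (adjusted p up to 0.637, without Ctr replicate 2) and the Myl3 call in 8 of 13 (up to 0.508, without DMD replicate 1).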

How the results depend on the processing

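Myl3 stayed called in every alternative run for DMD against Ctr (16, log2 -3.64 to -2.10), DMD against WT (15, -4.38 to -3.53) and middle against ends (13, 0.44 to 0.76). Of 584 alternative results of members, 511 kept direction and side of the threshold, 22 passed it newly, 23 lost it and 28 changed sign. Library totals as the only scaling moved the median gene by 0.31 in DMD against Ctr, 0.75 in DMD against WT, -0.44 in WT against Ctr and -0.16 in first against last. Genes called in DMD against Ctr (1740) became 2999 with no filter, 596 with thinned sections, 683 with the 2 groups only and 56 to 3425 without 1 replicate; with library totals they were 1292 (85.8% higher, against 56.6%). In DMD against WT (2085) they became 5148 with library totals (97.2% higher, against 54.4%), 3208, 507 and 68 to 3595 in the same settings other than the 2 groups only. In WT against Ctr (50) they became 460 with DESeq2, 213 with library totals (7.51% higher, against 46% before), 860 with no filter, 586 with the 2 groups only and 2 to 513 without 1 replicate. Middle against ends (21) gave 42 with no filter, 36 with outer and middle 20% bins and 12 to 28 without 1 replicate. First against last (376) gave 884 with library totals (12.4% higher, against 67.3%), 164 with 20% bins and 99 to 496. The middle difference of DMD (2) gave 1 with DESeq2, 0 with library totals, 4 with 20% bins and 0 to 2, and the first-against-last difference (22) gave 102 with no filter, 13 with 20% bins and 4 to 95. The Myl3 to Myl1 difference ranged between -3.41 and -2.90 and that of Myl2 to Mylpf between -2.67 and -1.49 without 1 replicate. Deviations of same-numbered muscles from their group means correlated at 0.00604 to 0.189. In a group of 2 muscles these deviations mirror each other, so the correlations cannot show whether the numbers pair samples. With a replicate block 4054, 4219 and 919 genes were called in the 3 whole-muscle comparisons. Of the light chains, Myl2 (-2.40 against Ctr, -2.58 against WT), Myl6b (0.99 against Ctr) and Mylpf (0.81 in WT against Ctr) newly passed with it. Library totals alone brought Mylpf past the threshold in DMD against Ctr (0.89), and DESeq2 did in WT against Ctr (0.82). Sign changes of values that did not pass were these. With WT and Ctr joined, DMD against Ctr gave Myl1 -0.20 and Myl12a -0.18. Mylk4 there gave 0.27 (library totals), 0.052 (no filter), 0.11 (thinned), 0.0026 (no mitochondrial genes) and 0.0033 (2 groups only). Library totals turned DMD against WT to 0.28 for Myl1 and 0.53 for Mylpf, WT against Ctr to -0.064 for Myl4 and -0.027 for Myl6b, and the first-against-last difference of Myl6b to -0.018. Myl2 in WT against Ctr gave 0.053 (thinned) and 0.17 (replicate block). With all sections the middle difference of Myl3 was -0.029 and the first-against-last difference of Myl6b -0.055, and with 20% bins Myl6b gave -0.22 and -0.39 in these. Values that changed sign without 1 replicate ranged, in DMD against Ctr, between -0.014 and 0.34 (Myl1), -3.31 and 0.42 (Myl2) and -0.46 and 0.66 (Mylk4), in DMD against WT between -0.037 and 0.63 (Myl6b), in WT against Ctr between -1.16 and 2.57 (Myl2) and -0.11 and 0.98 (Myl4), in middle against ends between -0.055 and 0.43 (Myl2) and -0.057 and 0.086 (Myl6b), in the middle difference between -0.039 and 0.12 (Myl3) and -0.17 and 0.24 (Myl6b), and in the first-against-last difference between -0.17 and 0.25 (Myl6b). The cause of these changes was not tested. Counts of 69 to 309 over a group limit Myl2, Myl4 and Myl6b in Ctr and WT, and 200 counts limit Myl2 in DMD.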
